A study of Mus musculus with 10 samples.

Results

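The genes of ribosome biogenesis and of RNA polymerase I were examined in mouse liver and in liver tumours by RNA sequencing. They were taken from the table of gene symbols by a rule on names: symbols beginning with Nop, Nol, Utp or Rrp and a digit, the symbols Polr1a to Polr1h, and Ncl, Fbl, Npm1, Bop1, Dkc1, Wdr12, Pes1, Gnl3, Ubtf, Nolc1, Gar1 and Nhp2, without Nol3 and Nol4. The rule took 51 of the 16697 genes with a symbol. It used no measured value, but the genes were chosen with earlier results of these data known. Normal livers of wild-type mice (NL, n = 4) were compared with tumours driven by c-MYC (c-MYC, n = 3) and with tumours driven by c-MYC together with FOXO1AAA (c-MYC/FOXO1AAA, n = 3). The transcription factor FOXO1 is normally held inactive by AKT, and FOXO1AAA is a mutant form that stays active. Plasmids with these transgenes, each under the EF1α promoter, had been pushed into the liver by hydrodynamic tail vein injection, which reaches hepatocytes. A Sleeping Beauty transposase inserts them. The c-MYC mice carried the empty pT3-EF1α vector in place of FOXO1AAA. The sources differ on 2 points: the strain field names C57BL/6 for all samples where the protocol names FVB and the methods FVB/N, and 1 description of the control plasmids also lists MCL1. The age, and whether a sample pools animals, are not given in the sources used here, so the p-values measure the spread between these samples. The comparison of both kinds of tumour asked whether active FOXO1 changes what c-MYC tumours express.

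Ribosomes are made in the nucleolus. RNA polymerase I, loaded by the factor UBF, transcribes the long precursor of the ribosomal RNAs. Guide RNAs bound by snoRNP proteins direct the modification of the precursor, the small subunit processome (Utp, Nop and Rrp proteins) folds and cuts the part that becomes the small subunit, and a second set of factors, among them the complex of Pes1, Bop1 and Wdr12, builds the large subunit. MYC is widely described as an activator of these genes, and the E-box CACGTG is the site that it binds with its partner MAX. The 51 genes fell into 6 for RNA polymerase I and UBF, 7 snoRNP proteins, 3 nucleolar chaperones and scaffolds, 20 factors of the small subunit, 13 of the large subunit, and 2 others. The 2 others are Nol8, a nucleolar RNA-binding protein, and Nol4l, which the name rule takes although it is not known as a factor of ribosome assembly.

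The promoters are shown because they bear on MYC. RefSeq promoter windows (GRCm38.p6, 250 bases before the start of transcription to 50 after) were at hand for 42 of the 51 genes. The E-box CACGTG, which reads the same on both strands, was present in 8 of these 42 genes (19.05%), in 11.78% of the tested genes with a window and in 8.09% of all genes with a window. The letters CACGCG, searched on both strands, were present in 15 of the 42 genes (35.71%), in 19.41% of the tested genes and in 10.49% of all genes. Below are 30 bases around the E-box, in capitals, of those 8 genes, 5′ to 3′ on the strand of the gene.
Utp4: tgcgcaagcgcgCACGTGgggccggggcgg
Nop2: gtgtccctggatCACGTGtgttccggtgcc
Nol11: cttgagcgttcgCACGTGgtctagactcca
Utp18: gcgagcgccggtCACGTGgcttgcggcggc
Pes1: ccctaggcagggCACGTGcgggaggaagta
Utp20: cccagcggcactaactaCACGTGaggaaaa
Rrp7a: gtgcctgtgcacCACGTGtcctggaactgg
Utp14b: cgcgggcgcgggCACGTGggtggggtcgtc
The windows lie at chr8:106893643-106893672 on the plus strand for Utp4, chr6:125131811-125131840 plus for Nop2, chr11:107189407-107189436 minus for Nol11, chr11:93885769-93885798 minus for Utp18, chr11:3963965-3963994 plus for Pes1, chr10:88826765-88826794 minus for Utp20, chr15:83122992-83123021 minus for Rrp7a and chr1:78658365-78658394 plus for Utp14b. The first base of the hexamer lay upstream of the RefSeq start in Nol11 (-43), Nop2 (-60), Rrp7a (-208), Utp14b (-63) and Utp18 (-20). It lay after the start in Pes1 (3), Utp4 (16) and Utp20 (38). Of the 8 genes, 6 are factors of the small subunit and 2 of the large subunit, and none of the 6 genes for RNA polymerase I and UBF held the hexamer in its windows. The median log2 fold change, c-MYC minus NL, was 1.73 in the 8 genes with the hexamer (0.92 to 2.57) and 1.87 in the 34 genes with a window and without it (0.43 to 4.13), and the difference between these sets was not tested. A match of letters is a description and does not show a bound site.

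The libraries held 13.12 M to 20.55 M reads in listed genes. The authors had scaled the library sizes, by factors of 0.6486 to 0.6838 in NL, 1.256 to 1.295 in c-MYC and 1.454 to 1.502 in c-MYC/FOXO1AAA. Foxo1 stood at 6.69 to 7.87 FPKM in NL, 5.17 to 6.46 FPKM in c-MYC and 70.1 to 95.6 FPKM in c-MYC/FOXO1AAA (FPKM, fragments relative to the length of the gene and the scaled library size). The mouse Myc gene stood at 4.17 to 22.2 FPKM in NL, 0.561 to 1.05 FPKM in c-MYC and 0.876 to 1.11 FPKM in c-MYC/FOXO1AAA, and these values do not show the level of the transgene. The summed FPKM of 7 hepatocyte markers was 74438 to 82489 in NL, 3367 to 5289 in c-MYC and 828 to 1482 in c-MYC/FOXO1AAA. In bulk tissue, fewer cells of a type and less RNA per cell cannot be told apart. The summed level of 6 markers of stellate cells and fibroblasts was 80.9 to 102 FPKM in NL, 10.1 to 33.1 FPKM in c-MYC and 297 to 397 FPKM in c-MYC/FOXO1AAA. The summed FPKM of the other lists in NL, c-MYC and c-MYC/FOXO1AAA was 234 to 421, 134 to 184 and 63.4 to 111 for 7 macrophage markers, 45.2 to 60.7, 9.81 to 17.3 and 26.3 to 41.0 for 6 endothelial markers, and 20.1 to 27.9, 17.6 to 32.4 and 30.2 to 38.1 for 5 cholangiocyte markers. It was 1.08 to 2.92, 1.07 to 1.45 and 8.24 to 12.9 for 3 lymphocyte markers, 1.56 to 5.28, 1.95 to 3.06 and 1.45 to 16 for 3 neutrophil markers, and 1117 to 2218, 131 to 234 and 215 to 532 for 5 erythroid markers. Genes of the same list did not all move alike. In c-MYC/FOXO1AAA, Cdh5 made up most of the endothelial sum (18.1 to 35.8 FPKM), while Clec4g stood at 0.422 to 0.711 (28.0 to 41.8 in NL). Dcn stood at 178 to 312 FPKM there and Lrat at 0.166 to 0.454 (3.41 to 4.4 in NL). The lymphocyte sum was mostly Cd79a there (6.98 to 11.9 FPKM), and the highest neutrophil sum came from replicate 3 alone. A sum thus does not give the level of a cell type. The part of cell composition in the results below was not tested.

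The 51 genes took 0.145% ± 0.0216 (SD, n = 4) of all reads in NL. In the tumours they took 1.04% ± 0.0155 (SD, n = 3) with c-MYC and 1.003% ± 0.0516 (SD, n = 3) with c-MYC/FOXO1AAA. The share of reads was 7.19 times higher in c-MYC than in NL, and no c-MYC library fell below 1.027% where no NL library exceeded 0.172%. Summed as FPKM, which carries the scaling of the authors, NL held 985 ± 159 (SD, n = 4), c-MYC held 3722 ± 54.0 (SD, n = 3) and c-MYC/FOXO1AAA held 3212 ± 210 (SD, n = 3), a ratio of 3.78 between c-MYC and NL. The fold changes below are on the FPKM scale. Ncl and Npm1 took the most of these reads in the tumours. Of the reads in the 51 genes, Ncl took 14.1% in NL, 18.3% in c-MYC and 15.2% in c-MYC/FOXO1AAA, and Npm1 took 7.91%, 15.2% and 17.4%.

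**Figure D1:**
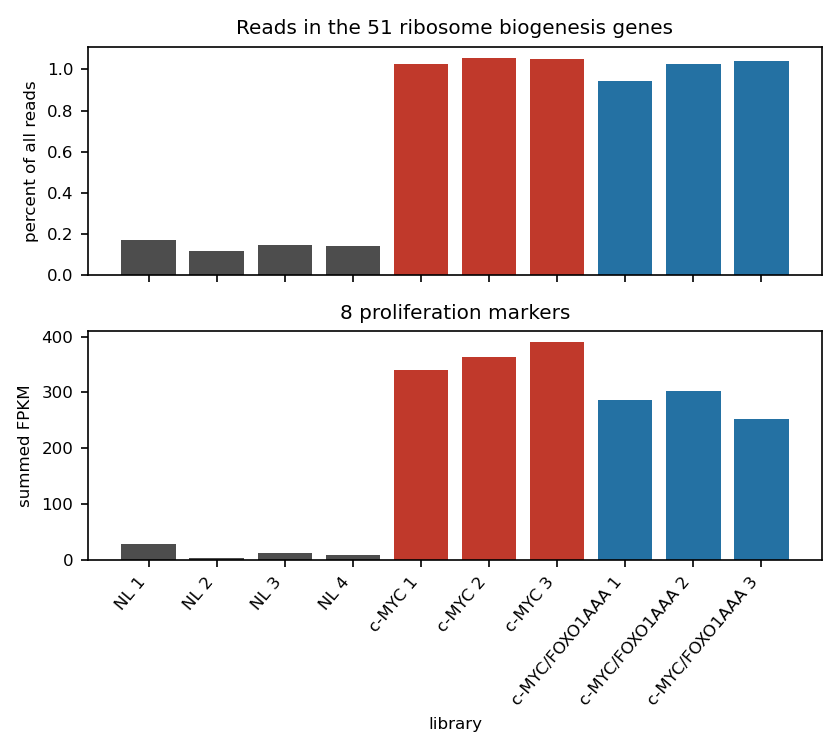
Upper bars, percent of all reads that fell in the 51 genes, for each library; lower bars, summed FPKM of 8 proliferation markers. The 6 tumour libraries lie between 0.944% and 1.056% of reads, the 4 NL libraries between 0.12% and 0.172%.

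The NL libraries were not alike for these genes. NL 2 was the lowest of the 4 for 44 of the 51 genes and NL 1 the highest for 41. The median log2 difference between NL 1 and NL 2 was 0.62 over the 51 genes (range -0.03 to 1.64) and 0.15 over all tested genes. The 8 proliferation markers summed to 28.2 FPKM in NL 1, 3.64 FPKM in NL 2, 11.8 FPKM in NL 3 and 8.49 FPKM in NL 4, so that the same library was highest and the same was lowest. Whether proliferating cells account for the difference was not tested. The tumours were more even. The median SD of log2 FPKM between libraries was 0.28 in NL, 0.10 in c-MYC and 0.13 in c-MYC/FOXO1AAA over the 51 genes, beside 0.19, 0.21 and 0.20 over all tested genes.

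In c-MYC against NL, 42 of the 51 genes were called higher and none lower, and all 51 estimates were above 0. A call requires a change above 1.5-fold at a Benjamini-Hochberg adjusted p under 0.05 over all 14017 tested genes (limma treat). Of all tested genes, 24.5% were called higher and 23.6% lower in this comparison. The median log2 fold change was 1.72 for the 51 genes (range 0.16 to 4.13) and 0.08 for all tested genes. In 50 of the 51 genes the lowest c-MYC library lay above the highest NL library, which held for 39.0% of all tested genes (34.9% in the opposite direction). The exception was Utp23, at 1.38 to 1.57 FPKM in NL and 1.38 to 1.98 FPKM in c-MYC. All 51 genes passed the filter on low values, an FPKM of 1 or more in 3 or more libraries, and the fewest reads of any of them in a library were 12.

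**Figure D2:**
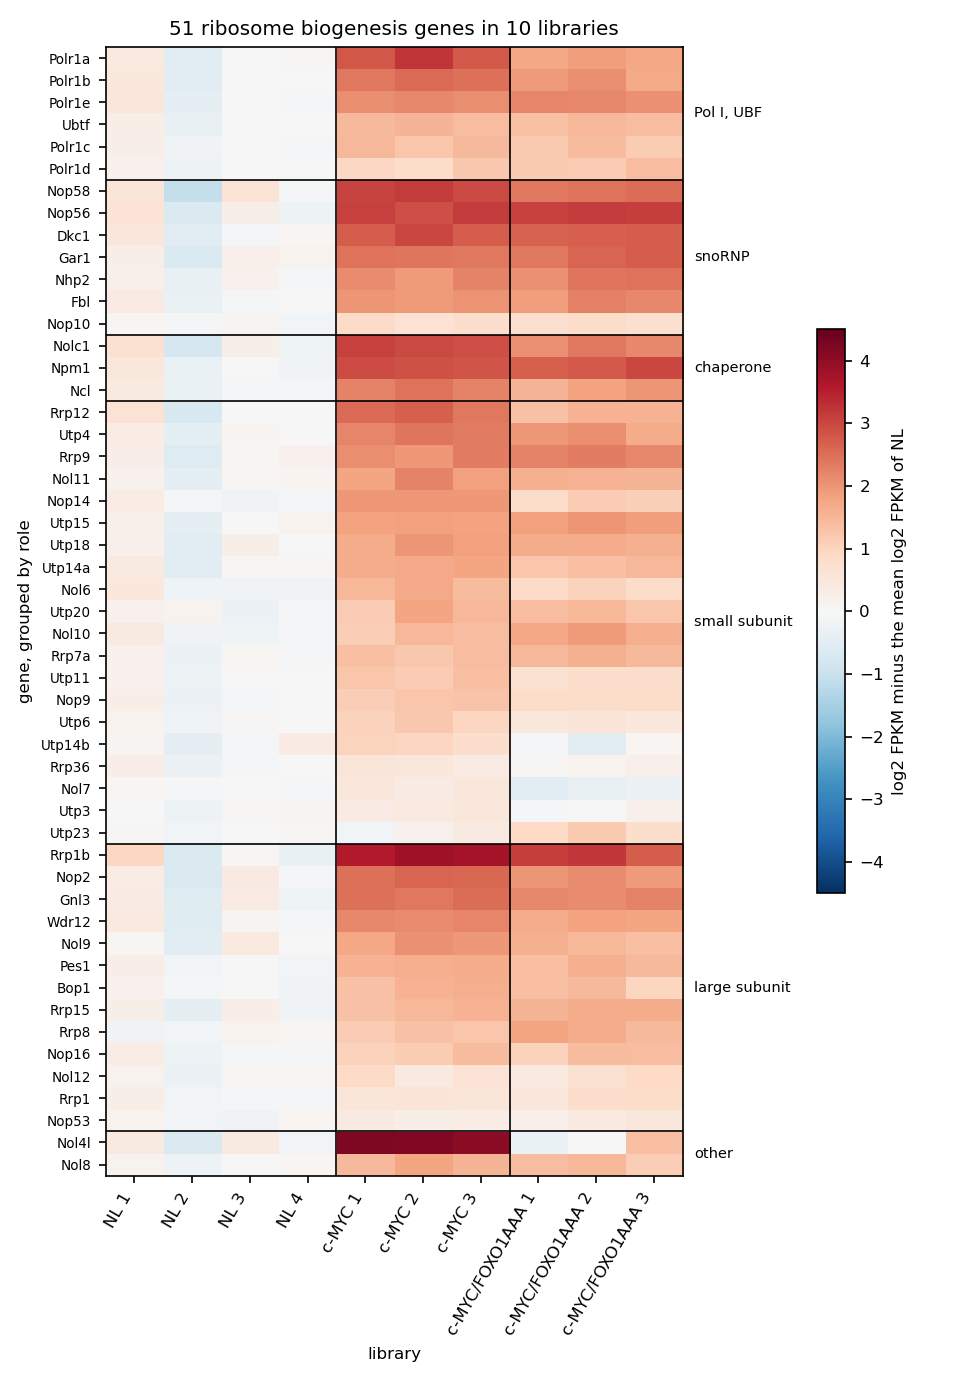
Heat map of log2 FPKM minus the mean log2 FPKM of NL for the 51 genes (rows, grouped by role) in the 10 libraries (columns). Red is above NL; all c-MYC columns are red for nearly all rows, and Nol4l is at 2.76, 3.35 and 8.8 FPKM in the c-MYC/FOXO1AAA columns against 56.0 to 62.6 FPKM in the c-MYC columns.

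All 6 genes that the rule took for RNA polymerase I and UBF were called higher in c-MYC than in NL. Their median log2 fold change was 1.79. The subunits listed under older symbols, given below, are not among these 6. Of those, Twistnb and Znrd1 were not called (0.21 and -0.47) and Cd3eap was called higher (2.31). Polr1a, the largest subunit and part of the catalytic centre, stood at 67.0, 34.6, 50.5 and 50.8 FPKM in NL, at 344, 459 and 334 FPKM in c-MYC and at 166, 181 and 164 FPKM in c-MYC/FOXO1AAA. The 3 groups did not overlap, with c-MYC highest and NL lowest. The log2 fold change of Polr1a, c-MYC minus NL, was 2.92 ± 0.195 (SE, adjusted p = 1.26e-06, limma treat). Polr1d, a small subunit shared with RNA polymerase III, stood at 58.8, 43.7, 51.3 and 52.2 FPKM in NL, at 98.0, 91.4 and 118 FPKM in c-MYC and at 117, 114 and 133 FPKM in c-MYC/FOXO1AAA. Both tumour groups lay above NL and overlapped each other. Polr1d had the smallest change of the 6 genes, at 0.99 ± 0.124 (SE, adjusted p = 0.00984, limma treat), and without c-MYC replicate 3 its call was lost (adjusted p = 0.0505). The second largest subunit, Polr1b, rose by 2.47 on the log2 scale, the subunit Polr1e by 2.12, Ubtf, which encodes UBF, by 1.47 and Polr1c, which is also shared with RNA polymerase III, by 1.40.

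Of the 7 snoRNP proteins, 6 were called higher in c-MYC, and their median log2 fold change of 2.41 was above that of the 2 subunit lists. Fbl, the methyltransferase of box C/D snoRNPs, stood at 74.5, 46.8, 54.5 and 58.1 FPKM in NL, at 231, 216 and 232 FPKM in c-MYC and at 213, 275 and 260 FPKM in c-MYC/FOXO1AAA. Nop56, a box C/D core protein, stood at 26.7, 11, 21.1 and 14.7 FPKM in NL, at 147, 129 and 152 FPKM in c-MYC and at 145, 152 and 151 FPKM in c-MYC/FOXO1AAA. In both genes each tumour library lay above each NL library, and the tumour groups overlapped. Nop58, the partner of Nop56 in the same particle, stood at 3.74, 1.20, 3.86 and 2.38 FPKM in NL, at 20.7, 22.6 and 20 FPKM in c-MYC and at 13.2, 13.9 and 14.6 FPKM in c-MYC/FOXO1AAA, so that here the tumour groups did not overlap. The log2 fold change, c-MYC minus NL, was 1.97 ± 0.150 (SE) for Fbl, 3.03 ± 0.247 (SE) for Nop56 and 3.06 ± 0.340 (SE) for Nop58, with adjusted p-values of 8.69e-06, 6.22e-06 and 6.17e-05 (limma treat).

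In box H/ACA snoRNPs the guide RNA directs the conversion of uridine to pseudouridine, and the protein Dkc1 is the enzyme. Dkc1 stood at 10.2, 4.96, 6.73 and 7.63 FPKM in NL, at 46.9, 57.9 and 47.5 FPKM in c-MYC and at 45.1, 45.8 and 46.9 FPKM in c-MYC/FOXO1AAA. Nhp2, a core protein of the same particle, stood at 57.5, 38.9, 57.2 and 46.7 FPKM in NL, at 215, 186 and 234 FPKM in c-MYC and at 208, 265 and 266 FPKM in c-MYC/FOXO1AAA. Both genes were higher in every tumour library than in every NL library, with log2 fold changes, c-MYC minus NL, of 2.83 ± 0.198 (SE, adjusted p = 2.01e-06, limma treat) for Dkc1 and 2.09 ± 0.157 (SE, adjusted p = 6.56e-06) for Nhp2. Gar1, another core protein, rose by 2.41 on the log2 scale. Nop10, the smallest core protein, was not called, at 58.8 to 69.9 FPKM in NL and 99.7 to 115 FPKM in c-MYC (log2 fold change 0.76 ± 0.095, SE, adjusted p = 0.0867, limma treat). Nop10 thus had the smallest estimate of the 4 proteins of this particle.

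The 3 nucleolar chaperones and scaffolds were all called higher in c-MYC, with a median log2 fold change of 2.88. Npm1 (nucleophosmin) stood at 146, 83.0, 101 and 92.7 FPKM in NL, at 787, 756 and 742 FPKM in c-MYC and at 663, 697 and 825 FPKM in c-MYC/FOXO1AAA. Ncl (nucleolin) stood at 48.0, 30.2, 35.4 and 35.4 FPKM in NL, at 174, 201 and 173 FPKM in c-MYC and at 106, 130 and 146 FPKM in c-MYC/FOXO1AAA. The tumour groups overlapped for Npm1 and did not for Ncl. The log2 fold change, c-MYC minus NL, was 2.88 ± 0.172 (SE, adjusted p = 5.37e-07, limma treat) for Npm1 and 2.31 ± 0.160 (SE, adjusted p = 2.83e-06) for Ncl. Nolc1, a scaffold that binds snoRNPs, rose by 2.98.

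Of the 20 factors of the small subunit, 15 were called higher in c-MYC and 5 were not called, with a median log2 fold change of 1.40. Utp20, a large scaffold of the processome, stood at 37.6, 36.8, 27.1 and 30.7 FPKM in NL, at 71.9, 112 and 91.2 FPKM in c-MYC and at 85.9, 92.3 and 77.0 FPKM in c-MYC/FOXO1AAA. Rrp9, a protein of the U3 snoRNP, stood at 13.8, 7.43, 11.9 and 12.7 FPKM in NL, at 48.1, 43.6 and 55.0 FPKM in c-MYC and at 52.7, 55.6 and 50.1 FPKM in c-MYC/FOXO1AAA. In both genes the tumours lay above NL and overlapped each other. The log2 fold change, c-MYC minus NL, was 1.46 ± 0.163 (SE, adjusted p = 0.000458, limma treat) for Utp20 and 2.13 ± 0.189 (SE, adjusted p = 2.20e-05) for Rrp9. The 5 genes that were not called were Utp3, Utp23, Utp14b, Nol7 and Rrp36, with log2 fold changes of 0.43, 0.16, 0.92, 0.46 and 0.48. Utp14b lies inside the gene Acsl3 on the same strand, and its reads could be shared with it.

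Of the 13 factors of the large subunit, 10 were called higher in c-MYC, with a median log2 fold change of 1.504. Rrp1b, a nucleolar protein that binds protein phosphatase 1, stood at 4.30, 1.44, 2.40 and 1.81 FPKM in NL, at 27.1, 31.9 and 30.8 FPKM in c-MYC and at 19.5, 20.5 and 15 FPKM in c-MYC/FOXO1AAA. Its paralogue Rrp1 stood at 73.0, 56.0, 58.7 and 57.7 FPKM in NL, at 88.0, 90.1 and 88.0 FPKM in c-MYC and at 87.3, 106 and 107 FPKM in c-MYC/FOXO1AAA. The estimates for the paralogues lay apart, though the difference between them was not tested. Rrp1b rose by 3.71 ± 0.308 (SE, adjusted p = 5.41e-06, limma treat) on the log2 scale, the second largest change of the 51 genes, while Rrp1 had a log2 fold change of 0.54 ± 0.114 (SE, adjusted p = 0.905) and was not called. Nop53, a late factor that brings the exosome to the large subunit, stood at 63.9, 52.9, 51.6 and 60.7 FPKM in NL, at 76.2, 69.3 and 72.5 FPKM in c-MYC and at 66.6, 77.9 and 81.9 FPKM in c-MYC/FOXO1AAA. Nop53 was not called either (0.35 ± 0.109, SE, adjusted p = 1.0), nor was Nol12, a nucleolar RNA-binding protein, at 0.65. The 3 partners Pes1, Bop1 and Wdr12 rose by 1.62, 1.504 and 2.16, the GTPase Gnl3 (nucleostemin) by 2.46 and the rRNA methyltransferase Nop2 by 2.57.

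**Figure D3:**
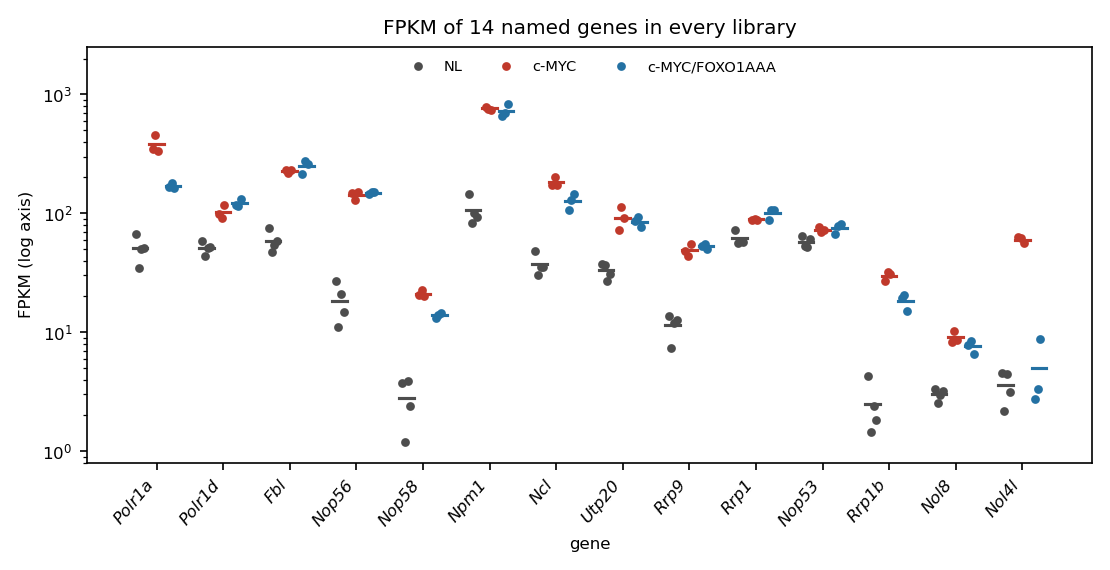
FPKM on a log axis of 14 genes in every library (points) with the mean of each group (bars). Both tumour groups lie above NL for all genes but Nol4l, where the c-MYC/FOXO1AAA libraries overlap NL.

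Nol4l and Nol8 were called higher in c-MYC as well. Nol8 stood at 3.36, 2.55, 2.98 and 3.22 FPKM in NL, at 8.33, 10.3 and 8.66 FPKM in c-MYC and at 7.82, 8.51 and 6.51 FPKM in c-MYC/FOXO1AAA, a log2 fold change, c-MYC minus NL, of 1.59 ± 0.150 (SE, adjusted p = 9.50e-05, limma treat). Nol4l stood at 4.53, 2.16, 4.47 and 3.12 FPKM in NL, at 62.6, 61.4 and 56.0 FPKM in c-MYC and at 2.76, 3.35 and 8.80 FPKM in c-MYC/FOXO1AAA. It was high in the c-MYC tumours alone. Its log2 fold change, c-MYC minus NL, of 4.13 ± 0.381 (SE, adjusted p = 1.14e-05, limma treat) was the largest of the 51 genes.

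Levels were not directly comparable between all genes, because the length that the authors divided by is short for some of them and long for others. It was 625 bp for Polr1a, 784 bp for Utp20 and 645 bp for Nol4l, where the longest annotated coding transcripts (GENCODE M21, GRCm38) are 9216, 8821 and 6399 bp. For 41 of the 51 genes the length used was within 10% of the longest coding transcript. For Rrp15 and Rrp36 it was 2.341 and 1.764 times that transcript. For Ncl, Nop58 and Wdr12 the longest coding transcript was itself the length used, at 8202, 9507 and 10012 bp. Expressed per longest transcript, the mean of Polr1a was 3.44 FPKM in NL and 25.7 FPKM in c-MYC, below Polr1c (24.4 and 64.5 FPKM), and the mean of Utp20 was 2.94 and 8.15 FPKM. Fold changes are not affected, since the length is the same in every library. Npm1 was the highest of the 51 genes in all groups on either length, with means of 106 FPKM in NL, 762 FPKM in c-MYC and 729 FPKM in c-MYC/FOXO1AAA (SDs of 28.0, 23.5 and 85.5 over 4, 3 and 3 libraries).

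In c-MYC/FOXO1AAA against c-MYC, 2 of the 51 genes were called lower and none higher, where 12.7% of all tested genes were called lower and 15.9% higher. At an unadjusted p under 0.05 in the same test, 5 genes were lower and none higher (15.2% and 18.5% of all tested genes). The 2 genes called were Nol4l and Polr1a. Nol4l was 13.8-fold lower, with a log2 fold change of -3.79 ± 0.408 (SE, adjusted p = 7.44e-05, limma treat), and c-MYC/FOXO1AAA replicate 3, at 8.80 FPKM, was nearest to c-MYC. Polr1a was 2.21-fold lower, with a log2 fold change of -1.14 ± 0.209 (SE, adjusted p = 0.0401). The call of Polr1a was lost in 5 of the 6 fits that left out 1 of the tumour libraries (adjusted p 0.0541 to 0.151; it was kept at 0.0448 without c-MYC replicate 3), and with the same FPKM total in every library (adjusted p = 0.128). The tumour groups did not overlap for Polr1a, since the highest c-MYC/FOXO1AAA library held 181 FPKM and the lowest c-MYC library 334 FPKM.

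The other 49 genes were not called, which does not show that they were unchanged. Their estimates are given by the 95% intervals. In 18 of the 51 genes the interval of the log2 fold change lay inside a 1.5-fold change in either direction, in 27 it reached beyond a 1.5-fold decrease, and in 6 beyond a 1.5-fold increase. The median log2 fold change was -0.25 for the 51 genes and 0.03 for all tested genes. For the 51 genes it moved to -0.083 with the same FPKM total in every library (0.197 for all tested genes). With quantile normalization it was -0.059 (-0.057 for all tested genes) and with an equal median -0.339 (-0.059 for all tested genes). Without c-MYC/FOXO1AAA replicate 3 it was -0.155 (-0.011 for all tested genes). In 25 genes the highest c-MYC/FOXO1AAA library lay below the lowest c-MYC library (30.7% of all tested genes), and in 4 genes, Rrp8, Rrp7a, Nol10 and Utp23, the order was the reverse (32.7%). Tested for any change at all, 14 genes were lower and 2, Rrp8 and Utp23, higher at an adjusted p under 0.05 (limma), where 26.4% of all tested genes were lower and 28.4% higher. The share of lower genes was thus near that of all tested genes. The 14 were Nol4l, Polr1a, Polr1b, Ncl, Nolc1, Nol6, Nol7, Nop14, Nop9, Rrp12, Utp3, Utp6, Utp11 and Utp14b, of which 9 are factors of the small subunit.

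By role, the members are described without a test between roles. The 7 snoRNP proteins had a median log2 fold change of 0.07, c-MYC/FOXO1AAA minus c-MYC, and 4 of them were above 0. Fbl (0.13, 95% interval -0.22 to 0.49), Dkc1 (-0.14, -0.61 to 0.33) and Nop56 (0.07, -0.52 to 0.66) had intervals that include 0, and Dkc1 turned to 0.032 with the same FPKM total and Nop56 to -0.016 with an equal median in every library. Nop58 of the same list stood at -0.60 (-1.41 to 0.21), and its tumour groups did not overlap. The 20 factors of the small subunit had a median of -0.38, and 15 of them were below 0. The nearest to a call was Nop14, at 30.1, 30.8 and 30.1 FPKM in c-MYC and 13.8, 17.6 and 16.4 FPKM in c-MYC/FOXO1AAA (-0.94 ± 0.146, SE, adjusted p = 0.0611, limma treat). Nol7 followed with 46.4, 42.3 and 46.6 FPKM in c-MYC and 23.2, 26.1 and 27.6 FPKM in c-MYC/FOXO1AAA (-0.82 ± 0.0960, SE, adjusted p = 0.0623). The tumour groups did not overlap in either gene. Of the 6 genes for RNA polymerase I and UBF, Polr1a and Polr1b (-0.56) were non-overlapping and lower, Ubtf stood at -0.08 (95% interval -0.39 to 0.24), and Polr1d and Polr1e at 0.25 and 0.03.

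**Figure D4:**
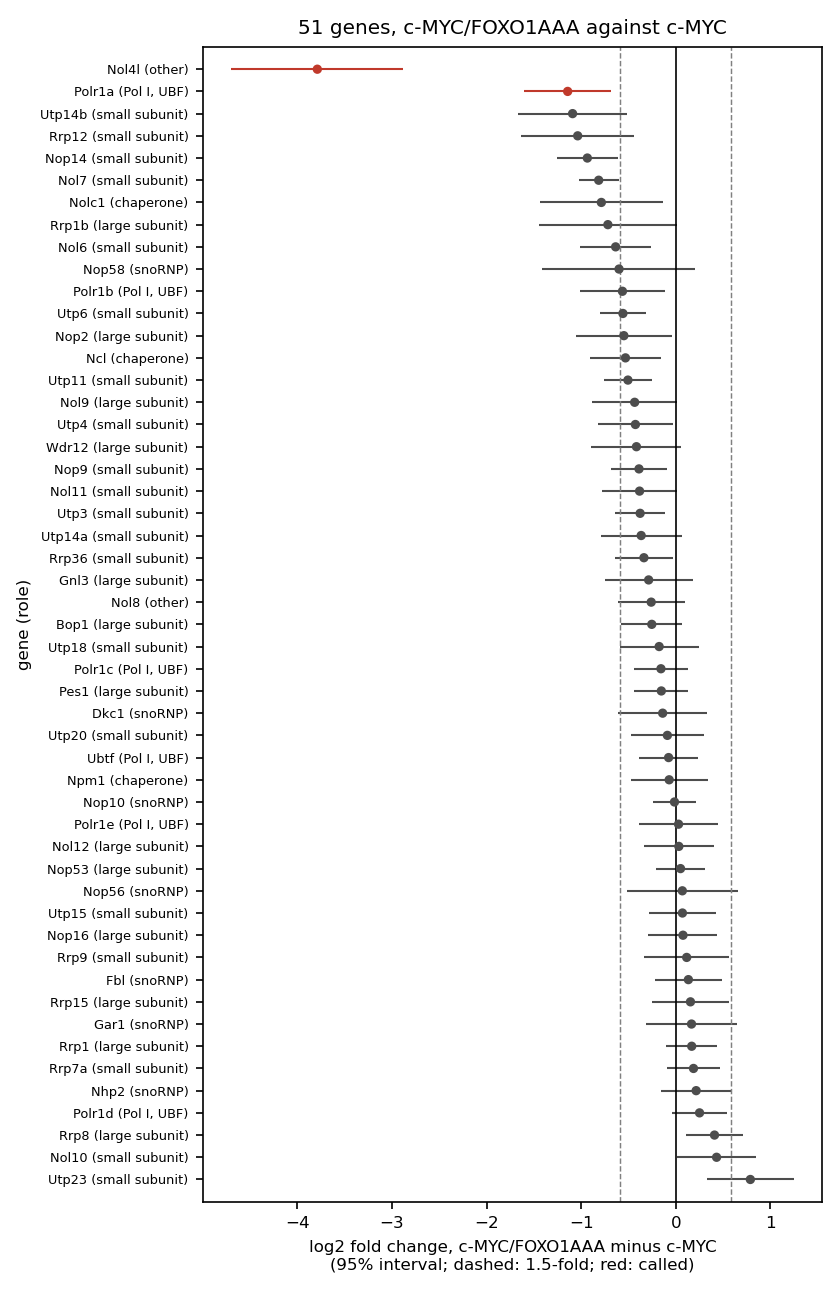
Log2 fold change of c-MYC/FOXO1AAA minus c-MYC with its 95% interval for the 51 genes, ordered by size. Nol4l (-3.79) stands apart, and the other genes lie between -1.14 and 0.79.

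In c-MYC/FOXO1AAA against NL, which shares the NL libraries with the first comparison, 37 of the 51 genes were called higher and none lower, where 31.2% of all tested genes were called higher and 26.6% lower. No gene was lower at an unadjusted p under 0.05 in limma treat either (27.6% of all tested genes). The median log2 fold change was 1.501 for the 51 genes and 0.21 for all tested genes, and 46 genes were higher without overlap (44.1% of all tested genes). The largest changes were those of Nop56 (3.10 ± 0.247, SE), Rrp1b (3.00 ± 0.308, SE), Npm1 (2.81 ± 0.172, SE) and Dkc1 (2.69 ± 0.198, SE), with adjusted p-values of 3.23e-06, 2.46e-05, 4.06e-07 and 1.96e-06 (limma treat). Nol7 was the only gene lower without overlap (36.0% of all tested genes), at 31.8 to 34.8 FPKM in NL and 23.2 to 27.6 FPKM in c-MYC/FOXO1AAA, and it was not called (-0.36 ± 0.0900, SE, adjusted p = 1.0). Over the 3 comparisons, 36 genes were called higher in both kinds of tumour than in NL with no call between the tumours, 9 genes were called in no comparison, and 4 (Nol6, Nop9, Utp6 and Utp11, all of the small subunit) were called only in c-MYC against NL. In c-MYC/FOXO1AAA against NL these 4 genes had log2 fold changes of 0.91, 0.83, 0.51 and 0.75. The adjusted p-values were 0.0566, 0.0701, 0.956 and 0.123 (limma treat). Polr1a was called in all 3 comparisons, and Nol4l was called higher in c-MYC than in both other groups. How many of all tested genes followed each of these patterns was not counted. For Nol4l the difference between c-MYC/FOXO1AAA and NL was 0.34 ± 0.381 (SE, adjusted p = 0.945).

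The table lists the remaining subunits particular to RNA polymerase I under older symbols that the name rule does not take, and they were looked at after the values of the others were known. Twistnb, now Polr1f, stood at 58.0, 35.0, 50 and 52.9 FPKM in NL, at 50, 57.0 and 60.5 FPKM in c-MYC and at 122, 109 and 117 FPKM in c-MYC/FOXO1AAA. Cd3eap, now Polr1g, stood at 2.42 to 5.19 FPKM in NL, 17.5 to 18.9 FPKM in c-MYC and 10.8 to 12.9 FPKM in c-MYC/FOXO1AAA. Znrd1, now Polr1h, stood at 21.5 to 33.6 FPKM in NL, 17.3 to 23.2 FPKM in c-MYC and 27.6 to 35.4 FPKM in c-MYC/FOXO1AAA. The subunits of the same enzyme thus followed different orders. Twistnb was called higher with FOXO1AAA than without it (1.06 ± 0.168, SE, adjusted p = 0.0326, limma treat) and not in c-MYC than in NL (0.21 ± 0.157, SE), Cd3eap was called higher in c-MYC than in NL (2.31 ± 0.212, SE, adjusted p = 2.25e-05), and Znrd1 was called in neither (-0.47 ± 0.164, SE, c-MYC minus NL).

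Other genes of the pathway were taken from lists drawn up by function. Of all tested genes, 24.5% were called higher and 23.6% lower in c-MYC against NL. In c-MYC against NL, 25 of 31 other small subunit factors were called higher and none lower (median log2 fold change 1.55), as were 31 of 37 other large subunit factors (1.49). Wdr43, a processome protein, rose by 2.48 on the log2 scale, from 24.1 to 61.7 FPKM in NL to 221 to 260 FPKM in c-MYC. Ppan, a factor of the large subunit, rose by 2.62, from 26.3 to 76.0 FPKM to 288 to 342 FPKM. Of the 10 partners of RNA polymerase I, which include the 3 subunits above, 5 were called higher (median 0.67), among them Taf1d, a subunit of the selectivity factor SL1, at 8.35 to 14.5 FPKM in NL and 58.7 to 91.3 FPKM in c-MYC. Of 24 genes of the exosome and RNase MRP, 13 were called higher and 1 lower (median 1.19).

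The subunits of the other polymerases were counted in the same way, beside the same shares of all tested genes (24.5% higher and 23.6% lower). Called higher in c-MYC were 1 of 5 subunits shared by all 3 polymerases, 4 of 8 of RNA polymerase II with 1 lower, and 4 of 10 of RNA polymerase III, with medians of 0.66, 0.67 and 0.66. The list of cytosolic ribosomal proteins was taken by name, and it also holds the kinase-like gene Rps6kl1 and paralogues such as Rpl3l and Rps4l. Of its 86 tested genes, 62 were called higher and none lower (median 1.20), with Rpl18 at 1658 to 2277 FPKM in NL and 4272 to 5378 FPKM in c-MYC. Of 77 mitochondrial ribosomal proteins, 7 were called higher and 1 lower (median 0.28), and Mrpl12 stood at 164 to 182 FPKM in NL and 191 to 255 FPKM in c-MYC without a call. All 8 proliferation markers were called higher (median 5.27), with Cdk1 at 1.79 to 7.54 FPKM in NL and 93.5 to 120 FPKM in c-MYC. The part of proliferation in the change of the 51 genes was not tested.

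**Figure D5:**
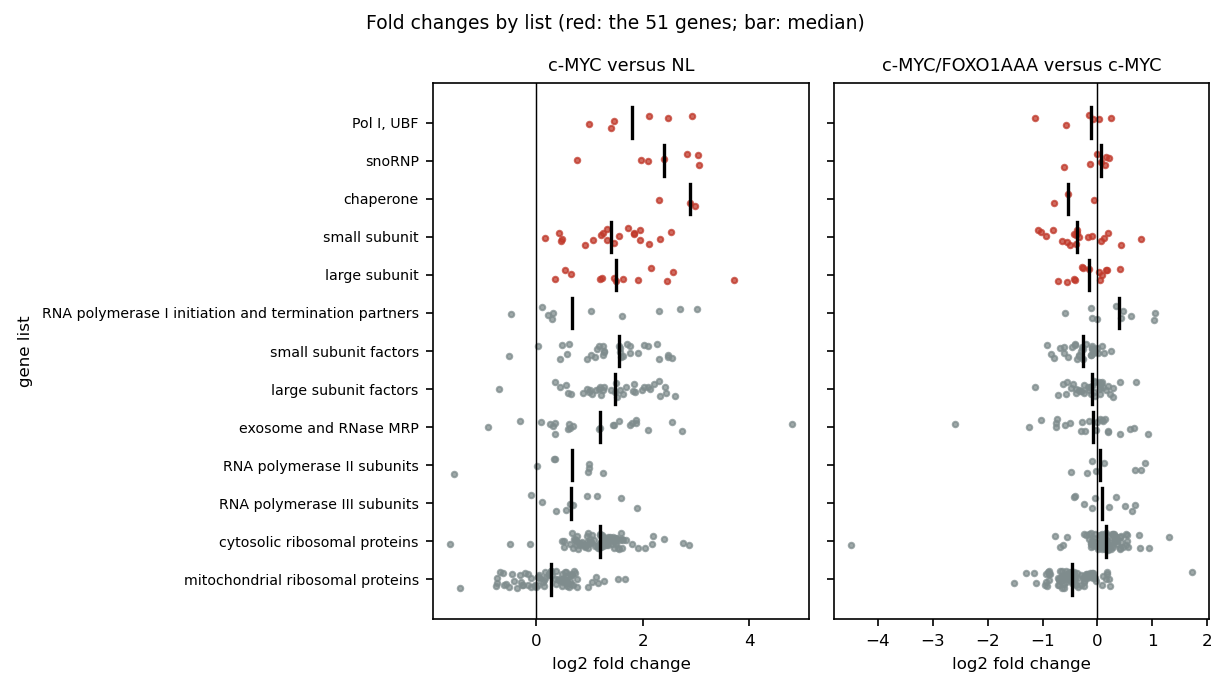
Log2 fold change of each gene (points) and median (bars) for the roles of the 51 genes (red, Nol8 and Nol4l left out) and for the other lists (grey), c-MYC minus NL on the left and c-MYC/FOXO1AAA minus c-MYC on the right. The lists of cytosolic and mitochondrial ribosomal proteins have medians of 1.20 and 0.28 on the left, and 0.16 and -0.47 on the right.

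The other lists had medians of both signs between the tumours. Of all tested genes, 12.7% were called lower and 15.9% higher in this comparison. In c-MYC/FOXO1AAA against c-MYC, 1 of 31 other small subunit factors and 1 of 37 other large subunit factors were called lower and none higher, with medians of -0.26 and -0.10. Bms1, a GTPase of the small subunit, stood at 211 to 262 FPKM in c-MYC and 144 to 169 FPKM in c-MYC/FOXO1AAA and was not called (-0.54 ± 0.133, SE). Among the 10 partners of RNA polymerase I, 2 were called higher and none lower (median 0.39). In the exosome list 3 were called lower and 1 higher, Exosc7 among the lower (-1.24 ± 0.119, SE, adjusted p = 0.000684, limma treat), at 85.3 to 87.0 FPKM in c-MYC and 32.1 to 40.4 FPKM in c-MYC/FOXO1AAA. In the list of cytosolic ribosomal proteins 1 of 86 genes was called lower (median 0.16), and of the mitochondrial ribosomal proteins 8 of 77 were called lower and 1 higher (median -0.47). No proliferation marker was called between the tumours by limma treat. At an unadjusted p under 0.05, 0 passed (15.2% of all tested genes lower and 18.5% higher). The median of the 8 markers was -0.42, with Cdk1 at 74.8 to 87.6 FPKM in c-MYC/FOXO1AAA. Of the 8 markers, 6 were lower without overlap (30.7% of all tested genes).

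By position, the 51 genes lay on 18 chromosomes, with 7 on chromosome 11 and 2 on chromosome X. Small nucleolar RNA genes lay inside 6 of them on the same strand (Dkc1, Gnl3, Ncl, Nop53, Nop56 and Nop58), and the table does not separate those RNAs from the host where their reads fall in its exons. A protein-coding gene on the opposite strand overlapped 15 of the 51, among them Nol4l, Rrp1b, Nop56 and Dkc1. Whether the counting used the strand is not given in the sources used here, so part of their reads could belong to the neighbour. No gene overlapped 23 of the 51. Of these, Polr1b, Ubtf, Fbl, Npm1, Utp20 and Rrp12 had log2 fold changes of 2.47, 1.47, 1.97, 2.88, 1.46 and 2.54, c-MYC minus NL. Nol12, Nop10 and Utp3, also without an overlap, stood at 0.65, 0.76 and 0.43 and were not called. The part of overlapping genes in the fold changes was not tested. Polr1a lies at chromosome 6, 71909053 to 71984935 on the plus strand, and Nol4l at chromosome 2, 153407462 to 153529971 on the minus strand (GRCm38, GENCODE M21).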

How the data were processed

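The 10 libraries were placed in groups by their titles. The table deposited by the authors holds log2 FPKM. Per the methods, the authors counted reads by Ensembl gene and used edgeR; the submitters' processing notes name GRCm38 and FastQC 0.11.7, and the aligner is not given in the sources used here. The values showed a prior count of 2, scaled per library, added before the logarithm. Whole reads and the gene length used were recovered from them for 99.99% of genes (tolerance 0.01 reads); mt-Co1 took its annotated length. Of 17069 entries, 372 without a symbol or values were left out.

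The log2 values were fitted with limma 3.58.1 (R 4.3.3, statmod 1.5.0; group means, trend, robust) to the 14017 genes that reached 1 FPKM in 3 or more of the 10 libraries. Changes above 1.5-fold were tested 2-sided with treat, after the glmTreat of the study, with Benjamini-Hochberg adjustment at 0.05. Count models were not applied to these log values. Intervals are 95%. The fit was tested on simulated reads for c-MYC against NL, with a spread that was set and not estimated from these data. It called 64 of 64 changes of 8-fold, 60 of 63 of 4-fold and 2 of 61 of 2-fold, and 0 unchanged genes. Changes near 2-fold were thus mostly missed in that simulation. The alternatives were other pseudocounts, filters, scalings, fold thresholds and fits, and each library left out in turn.

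The members and lists were chosen with earlier results of these data known. Values in every library are given for the 2 members of each role with the highest mean FPKM and for the 4 largest called changes in each direction of a comparison; any member called against the majority would be added. From other lists at most the 2 genes with the highest mean FPKM were named. Other named genes were chosen after their values were seen.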

Additional observations from a re-analysis of the deposited data

Results flagged for a closer look

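In the 4 NL libraries, 2 of the 51 genes had a library far from the other 3 by Dixon's criterion, and chance flags about 1 group in 20. Gar1 stood at 5.35 FPKM in NL 2, where the other NL libraries held 9.47 to 10.2 FPKM. Nol6 stood at 12.2 FPKM in NL 1, where the others held 7.94 to 8.04 FPKM. These are the libraries that were lowest and highest for most of the 51 genes. Groups of 3 were not examined in this way.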

How the results depend on the processing

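Against NL, no alternative turned a direction among the counts: 35 to 51 genes were called higher in c-MYC and 28 to 49 in c-MYC/FOXO1AAA, with no gene lower except 1 in c-MYC/FOXO1AAA without the fold threshold. With the same FPKM total in each library the medians moved to 2.643 and 2.599, beside 1.011 and 1.311 for all tested genes. With libraries left out in turn, the median was 1.577 to 1.851 and 41 to 43 genes were called in c-MYC, and 1.424 to 1.58 and 37 to 40 in c-MYC/FOXO1AAA.

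Between the tumours, the count of lower genes was 1 with the same FPKM total, a threshold of 2-fold, or trend and robust estimation off, 4 with an equal median or only the 2 groups, and 14 (with 2 higher) without a fold threshold. It was 1 to 2 with libraries left out in turn, and 1 with c-MYC replicate 1, c-MYC/FOXO1AAA replicate 1 or c-MYC/FOXO1AAA replicate 2 left out. The gene called beside Nol4l was not always Polr1a. It was Nol7 without c-MYC replicate 2 or c-MYC/FOXO1AAA replicate 3 (adjusted p = 0.0466 and 0.0429, limma treat), and Utp14b with quantile normalization. Nol7 and Nop14 joined Nol4l and Polr1a with an equal median, and Nop14 and Rrp12 joined them with only the 2 groups. The median was -0.083 with the same total, -0.339 with an equal median and -0.059 with quantile normalization, beside 0.197, -0.059 and -0.057 for all tested genes, and -0.275 to -0.155 with libraries left out. Polr1a had adjusted p-values of 0.24 after quantile normalization, 0.873 at 2-fold and 0.0595 with trend and robust estimation off. Nol4l was called lower under every alternative. Small differences that were not called changed sign: with the same total Dkc1, Npm1 and Utp20 stood at 0.032, 0.101 and 0.082, with quantile normalization at 0.072, 0.131 and 0.161, and with an equal median Nop53 and Nop56 at -0.035 and -0.016. With libraries left out in turn, Nop56 ranged from -0.003 (without c-MYC replicate 2) to 0.116, Utp20 from -0.253 to 0.066 (without c-MYC replicate 2), Nop53 from -0.011 (without c-MYC/FOXO1AAA replicate 3) to 0.137 and Nol4l, against NL, from -0.168 (without c-MYC/FOXO1AAA replicate 3) to 0.668. The cause was not tested.

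Of 896 other values for single named genes, 856 kept their direction and their side of the threshold, 15 lost the call and 13 gained one. The titles number the replicates, but libraries with the same number did not deviate together (r -0.04 to 0.027). A fit with the replicate number as a block left 1 gene lower between the tumours, Nol4l (Polr1a adjusted p = 0.0895), with 42 and 37 genes higher against NL. It did not change another call of a count. The number of libraries limits precision: between the tumours Utp14b, 2.13-fold lower (adjusted p = 0.122), and Rrp12, 2.05-fold lower (adjusted p = 0.179), were not called by limma treat in the main fit. Other settings of limma treat called them lower. This held for Utp14b with quantile normalization (adjusted p = 0.00403) and for Rrp12 with only the 2 groups (adjusted p = 0.0191).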
